A study of Mus musculus with 6 samples.

Results

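The genes of the Bcl2 family, 10 of the 55450 genes listed for each library, were compared between mouse embryonic stem cells that lack Hoxd12 and wild-type cells. The members were taken by symbol and grouped by role: the guardians Bcl2, Bcl2l1 and Mcl1, the effectors Bax and Bak1, and the BH3-only genes Bcl2l11, Bid, Bad, Bbc3 and Pmaip1. The rule uses symbols and no measured value. The knockout group (genotype Hoxd12-/-) and the wild-type group each had 3 libraries of messenger RNA. The cells of both groups were C57BL6 embryonic stem cells labelled as E3.5 embryo in stage, grown in mES medium that contained 2i, inhibitors of the MEK and GSK3 kinases under which naive pluripotency is maintained. The labels do not say how the knockout was made, whether it is 1 clone, or which libraries stem from separate cultures. The p-values therefore rest on the spread among the 6 libraries as deposited, and that spread may be technical.

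Bcl2 family proteins decide whether the outer mitochondrial membrane is breached in the intrinsic pathway of apoptosis. The effectors, once active, form pores that release cytochrome c, which then activates caspases through the apoptosome. Guardians hold the effectors and the BH3-only proteins in check, and BH3-only proteins report stress by binding guardians or by activating effectors. Pluripotent stem cells are known to be sensitive to this pathway.

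Library totals ran from 5412577 to 6280934 expected counts (estimated reads per gene). The targeted gene Hoxd12 had 0 counts in all 6 libraries, so it could not check the genotype labels. All 8 markers of embryonic stem cells on the list were present, Pou5f1 among them, and their summed level was 12305 to 12558 TPM (a level scaled for transcript length and library size) in the knockout and 11044 to 11611 TPM in wild type. Most of that sum was Dppa5a, which the count fit did not call (log2 fold change 0.03, edgeR adjusted p = 0.647). Without it the sums were 2010 to 2276 and 1974 to 2067 TPM, which overlap. Among these markers Nanog fell (-0.39, edgeR adjusted p = 0.00167) and Zfp42 rose (0.29, adjusted p = 1.43e-05); all 3 names were chosen once their values were known. Of 7 fibroblast markers 4 had 0 counts in every library (Col3a1, Postn, Dcn and Lum), and the list summed to 2.67 to 6.70 TPM in the knockout and 6.55 to 10.1 TPM in wild type. The sum over 6 primitive endoderm markers was 2.26 to 4.07 TPM in the knockout and 1.16 to 2.25 TPM in wild type, 5 blood markers gave 6.06 to 7.70 and 5.09 to 6.49 TPM, and 5 trophectoderm markers 37.4 to 44.0 and 39.4 to 44.7 TPM. Thy1, the 1 fibroblast marker that passed the count filter, was called lower (log2 fold change -0.97, edgeR adjusted p = 0.00859). Gata4, the 1 tested marker of primitive endoderm, was called higher (1.10, adjusted p = 0.0247), with overlapping groups. Both were low, at 14 to 36 and 8 to 42 counts. No tested blood or trophectoderm marker was called. The part of such cells in the results was not tested. Knockout replicate 2 stood apart: the locus CT010467.1 took 1.63% of its counts, against 0.102% to 0.139% in the other libraries. In bulk RNA, fewer cells that express a gene and less RNA per cell cannot be told apart.

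Of the 9 members that passed the count filter 2 were called changed, Bax and Bid, by -11.6% and 17.6% of their wild-type level. Bax fell and Bid rose in the knockout (edgeR's quasi-likelihood test, Benjamini-Hochberg adjusted over all 12891 genes tested, called below 0.05). That is 22.2% of the tested members, where 26.5% of all genes tested were called, so the share is near the background. At an unadjusted p below 0.05 there were 4 members, Bax, Bid, Bbc3 and Bcl2l1, beside 36.8% of all genes. By direction 1 member was higher and 1 lower, beside 12.1% and 14.4% of all genes. The median log2 fold change of the 9 members was -0.07, against 0.02 over all genes. Bcl2 itself did not pass the filter. The promoters of the called pair are printed here, 250 bases before to 50 after the start of the gene from RefSeq (GRCm38.p6), because these are the members whose transcript level passed the test.

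Bax, chr7:45466849-45467148, minus strand: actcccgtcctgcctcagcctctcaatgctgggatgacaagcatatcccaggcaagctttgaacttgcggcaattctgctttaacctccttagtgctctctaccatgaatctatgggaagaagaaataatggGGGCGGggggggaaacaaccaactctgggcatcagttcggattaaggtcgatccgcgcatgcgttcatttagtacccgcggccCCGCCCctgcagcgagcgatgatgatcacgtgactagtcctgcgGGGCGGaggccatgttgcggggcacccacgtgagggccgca
Bid, chr6:120916775-120917074, minus strand: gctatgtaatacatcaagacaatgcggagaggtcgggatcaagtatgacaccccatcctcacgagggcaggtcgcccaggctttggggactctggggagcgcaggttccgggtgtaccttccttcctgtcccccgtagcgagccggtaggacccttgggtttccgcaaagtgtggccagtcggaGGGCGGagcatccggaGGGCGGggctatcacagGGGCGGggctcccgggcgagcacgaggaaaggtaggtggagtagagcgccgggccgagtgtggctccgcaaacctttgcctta

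Capitals mark the GC box, GGGCGG read on either strand. Each of these promoters held 3 such boxes, and 35.7% of 32851 promoter windows held at least 1. The share of windows with as many as 3 was not counted. The E-box CACGTG occurred in 2 places of the Bax window and in 0 of the Bid window, where 7.15% of windows held it at least once. A half-site of p53 was found once in the Bax window and not in that of Bid, against 8.36% of windows. Neither window held CCAAT (37.4% of windows, both strands) or TATAAA (13.6%). The Bax window held 19 CpG dinucleotides and the Bid window 22, more than 71.9% and 76.9% of windows. These are matches of letters and no factor was measured.

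Levels spanned a wide range in wild type. Bax, the effector that moves from cytosol to mitochondria, was the highest member at 463 ± 13.8 TPM (SD, n = 3), above 98.3% of the protein-coding genes with at least 0.1 TPM. Mcl1, a short-lived guardian, followed at 88.7 ± 2.28 TPM, and Bak1, the effector that resides at mitochondria, at 40.9 ± 2.20 TPM. Bad, Bid and Bcl2l1 lay at 16.6 ± 1.97, 16.5 ± 1.096 and 16.5 ± 1.16 TPM, and neighbours among them overlapped in range. Bbc3 stood at 11.6 ± 1.54 TPM, below all 3 of these in every library. Bcl2l11 (4.22 ± 1.295 TPM) and Pmaip1 (3.25 ± 0.544 TPM) overlapped each other. The order in the knockout differed. Bid (20.6 ± 1.96 TPM) lay above Bad (17.3 ± 0.971 TPM) without overlap, and Bcl2l1 (16.1 ± 1.21 TPM) overlapped Bbc3 (15.7 ± 2.90 TPM). The mean of Pmaip1 (4.23 ± 0.927 TPM) lay above that of Bcl2l11 (3.40 ± 0.752 TPM), with overlapping ranges.

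**Figure D1:**
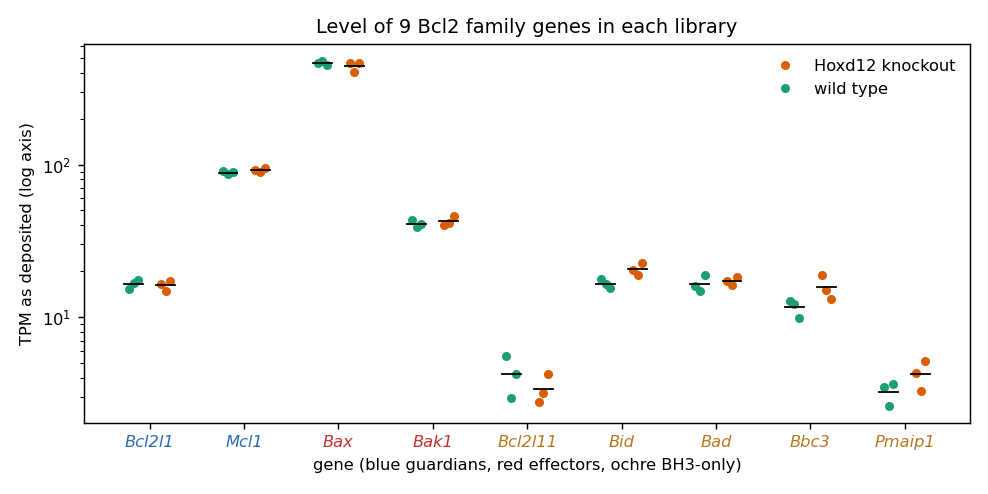
Deposited TPM on a log axis for 9 members, one point per library with the mean as a bar, wild type in green and knockout in orange; Bcl2 is left out because it was listed at 0 TPM in 3 of 6 libraries. Bax lies highest in every library. Bid and Bbc3 are the members whose groups do not overlap, 2 of 9, beside 37.4% of all genes tested.

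The guardians showed no called change. Mcl1 (ENSMUSG00000038612, chromosome 3, 95658788 to 95663176, GRCm38), whose protein is held at a level by rapid turnover, had 318, 332 and 315 CPM in the knockout and 338, 330 and 343 CPM in wild type (CPM, counts scaled to a TMM-adjusted library size). The groups overlapped. Its log2 fold change was -0.07 (SE 0.04, 95% interval -0.16 to 0.02, adjusted p = 0.268).

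Bcl2l1 (ENSMUSG00000007659, chromosome 2, 152780668 to 152831728) encodes Bcl-xL, the guardian that binds both effectors and most BH3-only proteins. It had 39.2, 38.4 and 38.2 CPM in the knockout and 40.0, 44.3 and 46.4 CPM in wild type, so that the groups did not overlap, as in 39.7% of all genes tested. The log2 fold change of -0.18 (SE 0.08, 95% interval -0.35 to -0.003) had an unadjusted p of 0.0467 and did not pass the adjusted test (edgeR adjusted p = 0.129). In TPM the groups overlapped, at 14.8 to 17.2 and 15.2 to 17.5.

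Bcl2 (ENSMUSG00000057329, chromosome 1, 106538178 to 106714274), the founding member and a guardian prominent in lymphocytes, was barely detected. Its counts were 0, 2 and 0 in knockout replicates 1 to 3, and 5, 0 and 1 in those of wild type. At these totals 3 counts are 0.478 to 0.554 CPM, a limit for counting error only, and both groups lay at or near it. No fold is given for it. Among the measured guardians Mcl1 therefore made up 84.3% ± 1.101 of the summed TPM in wild type and 85.1% ± 0.559 in the knockout (SD, n = 3), and the ranges overlapped.

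Of the effectors, Bax (ENSMUSG00000003873, chromosome 7, 45461697 to 45466898) had 368, 351 and 359 CPM in the knockout and 395, 421 and 404 CPM in wild type. Every knockout library lay below every wild-type library, where CPM groups did not overlap in 39.7% of all genes tested. The fall was 0.18 on the log2 scale (log2 fold change -0.18, SE 0.04, 95% interval -0.27 to -0.09, edgeR adjusted p = 0.00274), a change of -11.6%. It was called by DESeq2 (adjusted p = 0.00435), without knockout replicate 2 (0.00806) and without each of the other libraries.

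The fall of Bax was not called on TPM. There the libraries had 460, 406 and 461 TPM in the knockout and 463, 476 and 449 TPM in wild type, which overlap, and limma on log2(TPM + 1) gave -0.07 (adjusted p = 0.460). On that scale the median of all genes tested was 0.10, and 0.11 on log2(TPM + 0.1), against 0.02 on counts. Relative to that median Bax lay at -0.16. Genes within 5 Mb of Bax had a median of 0.01 in the count fit, over 123 tested genes.

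Bak1 (ENSMUSG00000057789, chromosome 17, 27019810 to 27029009) had 77.1, 86.0 and 85.7 CPM in the knockout and 89.6, 84.0 and 87.3 CPM in wild type. The groups overlapped (log2 fold change -0.07, SE 0.06, 95% interval -0.20 to 0.06, adjusted p = 0.459). Bak1 shares part of its locus with Ggnbp1 on the other strand; the kit marks strand, but whether the counting used it is not given in the sources used here. Summed over both effectors, Bax supplied 91.9% ± 0.522 of the TPM in wild type and 91.2% ± 0.667 in the knockout.

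The profile over the 6 libraries most like that of Bax, by the mean absolute difference of log2 CPM centred on the wild-type mean, was that of Bcap31 (0.00683), followed by Psme4 (0.0108) and Ywhaq (0.0125), among 9820 genes with at least 5 CPM. Their log2 fold changes were -0.17, -0.19 and -0.17, beside -0.18 for Bax, a likeness fixed in advance by the choice on profile.

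Of the 5 BH3-only genes, all tested, 1 was called higher and 0 lower. Beside this, 26.5% of all genes tested were called, 12.1% higher and 14.4% lower. A single call gives no direction for the role. Bid (ENSMUSG00000004446, chromosome 6, 120891930 to 120916853), which links death receptors to mitochondria after cleavage by caspase-8, had 44.6, 45.2 and 48.5 CPM in the knockout and 41.0, 38.5 and 38.2 CPM in wild type. All knockout libraries were higher, on CPM and on TPM (20.4, 18.7 and 22.6 against 17.7, 16.4 and 15.5 TPM). Of all genes tested, 39.7% did not overlap on CPM and 37.4% on TPM. The log2 fold change was 0.23 (SE 0.08, 95% interval 0.07 to 0.40, edgeR adjusted p = 0.0326), a rise of 17.6%.

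The call of Bid was lost in 9 of 15 other settings, in a range of adjusted p from 0.0307 to 0.189. Among them were DESeq2 (0.189), the length offset (0.111), limma on log2(TPM + 1) (0.0796), no count filter (0.0546) and the fits that left out knockout replicate 1 (0.0533), knockout replicate 3 (0.139), wild-type replicate 2 (0.10) or wild-type replicate 3 (0.108). The call was kept when knockout replicate 2 was left out (0.0462). The log2 fold change lay between 0.20 and 0.32 in all 15.

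Bid lies in a stretch of chromosome 6 where other genes were higher too. Of 94 tested genes within 5 Mb of it 23 rose (24.5%) and 10 fell (10.6%), with a median of 0.09, and the median of chromosome 6 was 0.16 over 600 genes, against 0.02 for all genes. Relative to its window Bid lay at 0.15. Its 3′ end overlaps that of Bcl2l13 on the other strand, a member of the wider family that also rose (0.27), and reads of such a pair may be split without strand. The part of the region in the rise of Bid was not tested.

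Bbc3 (ENSMUSG00000002083, chromosome 7, 16308393 to 16318205) encodes Puma, a p53 target that binds all guardians. It had 23.7, 23.8 and 22.3 CPM in the knockout and 19.6, 18.9 and 19.4 CPM in wild type. The groups did not overlap on CPM or on TPM (13.1 to 18.8 against 9.84 to 12.7 TPM), beside 39.7% and 37.4% of all genes tested. Its log2 fold change of 0.27 (SE 0.11, 95% interval 0.04 to 0.50) had an unadjusted p of 0.0240 and missed the threshold (edgeR adjusted p = 0.0790), as it did in every other setting (adjusted p = 0.0757 to 0.296). The median of 101 tested genes within 5 Mb was -0.03.

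Pmaip1 (ENSMUSG00000024521, chromosome 18, 66458533 to 66465565) encodes Noxa, which binds Mcl1 above all. It had 11.04, 8.89 and 12.6 CPM in the knockout and 9.43, 7.49 and 10.5 CPM in wild type, with overlapping groups. The log2 fold change of 0.26 had an interval from -0.10 to 0.62 (SE 0.18, edgeR adjusted p = 0.298). It was 0.14 when knockout replicate 3 was left out (adjusted p = 0.685), and 0.14 when wild-type replicate 2 was (0.679).

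Bad (ENSMUSG00000024959, chromosome 19, 6941861 to 6951899) encodes a BH3-only protein that survival kinases keep phosphorylated. Its values were 14.4, 16.4 and 13.4 CPM in the knockout and 15.2, 16.1 and 18.7 CPM in wild type, which overlap (log2 fold change -0.18, 95% interval -0.47 to 0.10, edgeR adjusted p = 0.351). On log2(TPM + 1) its sign was the opposite (0.06, adjusted p = 0.750). Bad overlaps Gpr137 on the other strand.

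Bcl2l11 (ENSMUSG00000027381, chromosome 2, 128126038 to 128162547) encodes Bim, an activator of Bax and Bak that exists in several splice forms. It had 10.9, 10.2 and 13.9 CPM in the knockout and 14.0, 8.63 and 11.3 CPM in wild type. Groups overlapped, and the log2 fold change was 0.06 (SE 0.17, 95% interval -0.30 to 0.41, edgeR adjusted p = 0.852). With an offset for transcript length the value was -0.41 (adjusted p = 0.230), and on log2(TPM + 1) it was -0.23 (adjusted p = 0.468). On counts the value was also negative when knockout replicate 3 (-0.091) or wild-type replicate 2 (-0.11) was left out, so no direction is given for Bcl2l11.

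**Figure D2:**
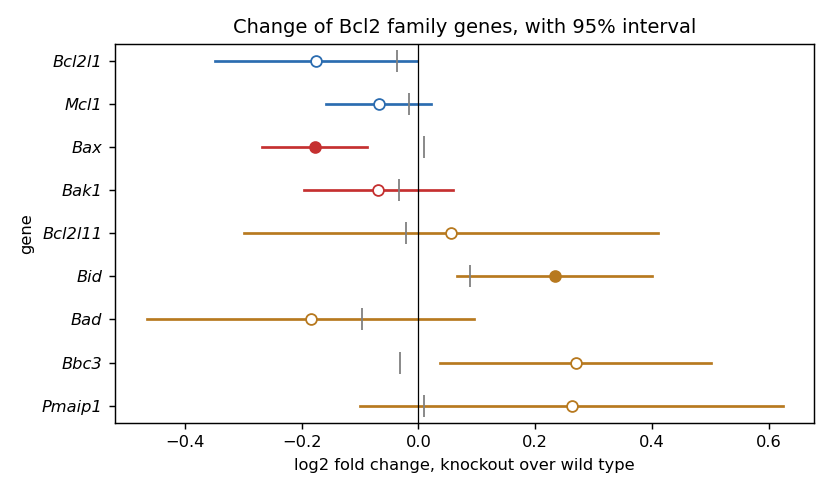
Log2 fold change of knockout over wild type for the 9 tested members with its 95% interval, filled where called; grey ticks give the median of genes within 5 Mb. Bax at -0.18 and Bid at 0.23 are the filled points, and the interval of Bbc3 (0.04 to 0.50) also lies above 0.

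The deposited length of most members differed between libraries, within the range of their annotated transcripts, and so carries the mix of transcripts. For Bcl2l11, with 8 annotated transcripts from 391 to 5036 bases, it was 3841, 2978 and 3368 bases in the knockout and 2369, 2666 and 2421 bases in wild type. Every knockout library had the longer average, by 910 bases between the means of 3396 ± 432 and 2485 ± 159 (SD, n = 3). The difference in log2 length, 0.45, was larger in size than in 98.1% of 10042 tested genes with varying length. Groups of lengths did not overlap in 16.0% of those genes, and 10.7% were longer in every knockout library. An exact 2-sided permutation test gave p = 0.10, the smallest that 3 against 3 libraries allow, and 0.800 after adjustment over 8 members. The counts behind these lengths were 54 to 90 in the knockout and 53 to 80 in wild type.

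For the other 7 tested members with varying length the groups overlapped. Bid had 2223 to 2262 bases in the knockout and 2156 to 2236 in wild type. Bbc3 varied most among libraries of a group, from 1335 to 1814 bases in the knockout and from 1458 to 1814 in wild type, which enters its TPM. The length of Mcl1 was 3418 bases in all libraries, that of its long coding transcript.

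**Figure D3:**
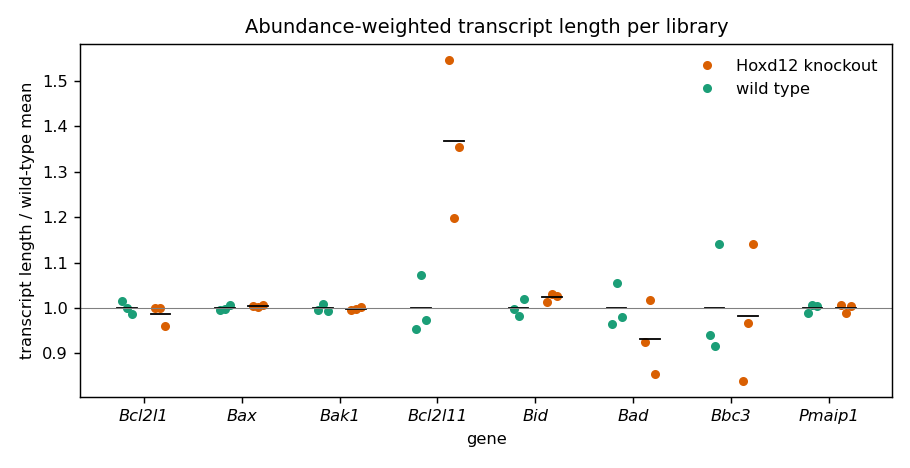
Deposited transcript length of 8 members in each library divided by the wild-type mean of the gene, wild type in green, knockout in orange, bars at the means. All 3 knockout points of Bcl2l11 lie above its wild-type points, and the groups of the other genes overlap.

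Setting the roles against each other, the guardians summed to 109, 104 and 112 TPM in the knockout and 106, 103 and 106 TPM in wild type. The effectors summed to 501, 448 and 507 TPM in the knockout and 506, 515 and 489 TPM in wild type. Both sums overlapped between groups in TPM. As count per effective length with TMM scaling, both were lower in every knockout library. There the guardians summed to 113 to 118 in the knockout and 120 to 125 in wild type. The effectors summed to 508 to 527 and 574 to 600. The BH3-only genes summed to 63.6, 56.4 and 63.3 TPM in the knockout and 55.4, 49.1 and 51.9 TPM in wild type, with no overlap. The log2 ratio of their means was 0.23 in TPM and 0.10 as count per effective length with TMM scaling, where the sums were 64.0 to 66.9 and 57.2 to 62.9. Without Bid the sums were 37.7 to 43.2 and 32.8 to 37.8 TPM, and without Bbc3 41.4 to 50.2 and 36.9 to 42.7 TPM; the groups overlapped in both. TPM of single genes did not overlap in 37.4% of all genes tested. No test is given for sums over chosen members.

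Per unit of BH3-only transcript the summed TPM of guardians was lower in the knockout, a difference that was not tested. The ratio of guardians to BH3-only genes was 1.71, 1.85 and 1.77 in the knockout and 1.92, 2.10 and 2.05 in wild type, so the groups did not overlap. The means were 1.77 ± 0.0688 and 2.02 ± 0.0930 (SD, n = 3). This ratio does not depend on library scaling. Bid and Bbc3 supplied the most, with mean differences of 4.09 and 4.05 TPM of the 61.1 ± 4.05 and 52.2 ± 3.15 TPM summed. Of these, Bbc3 was not called, and the call of Bid was lost in 9 of 15 other settings. The TPM of single genes did not overlap in 37.4% of all genes tested. Without Bbc3 the ratio was 2.23 to 2.51 in the knockout and 2.49 to 2.79 in wild type, which overlap; without Bid it was 2.51 to 2.76 and 2.81 to 3.14, which do not. The ratio of guardians to effectors was 0.217, 0.233 and 0.221 in the knockout and 0.210, 0.200 and 0.217 in wild type, which overlap.

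**Figure D4:**
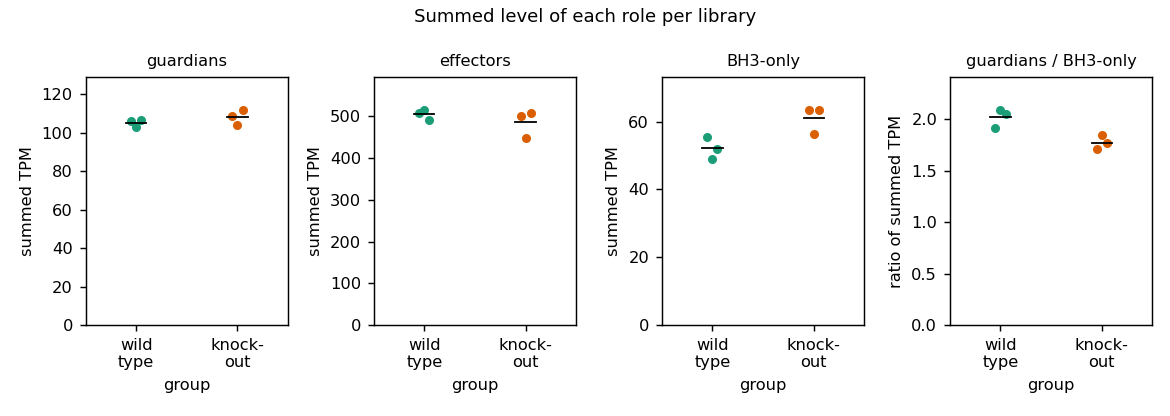
Summed TPM of guardians, effectors and BH3-only genes, and the ratio of guardians to BH3-only genes, one point per library with the mean as a bar. The BH3-only sums (56.4 to 63.6 against 49.1 to 55.4 TPM) and the ratios separate the groups. Without Bbc3 both overlap, and without Bid the sums overlap but the ratios do not. The other sums overlap in TPM.

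Of 15 further genes of the family 10 were tested, and 4 rose and 1 fell, so that 5 of 10 were called, where 26.5% of all genes were. Bok, an effector-like member, fell from 16.8 ± 2.12 to 11.1 ± 1.093 CPM (log2 fold change -0.60, SE 0.15, edgeR adjusted p = 0.00257), a call lost on log2(TPM + 1) (adjusted p = 0.0620). Bnip3l, a mitophagy receptor with a BH3-like stretch, rose by 0.19 (edgeR adjusted p = 0.0144). On log2(TPM + 1) it was at 0.37, where the median of all genes tested was 0.10. Its call was lost with DESeq2 (adjusted p = 0.116), without knockout replicate 3 (0.0720) and without wild-type replicate 2 (0.0761). The rises of Bcl2l14 (0.43, adjusted p = 0.0409) and Bcl2l13 (0.27, adjusted p = 0.0489), both on chromosome 6, were lost in 9 and 10 of 15 settings; leaving out knockout replicate 1, knockout replicate 3, wild-type replicate 1 or wild-type replicate 3 ended the call of Bcl2l14 (0.0730 to 0.215), and leaving out knockout replicate 1, knockout replicate 3, wild-type replicate 2 or wild-type replicate 3 that of Bcl2l13 (0.185 to 0.219). Tested genes within 5 Mb of Bcl2l14 had a median of 0.23 (29 genes), and those within 5 Mb of Bcl2l13 0.09 (95 genes). The part of the region in these rises was not tested. The BH3-only gene Bmf, named after its value was seen, also rose (0.34, adjusted p = 0.0492), but lost its call in 12 of 15 settings, among them DESeq2 (0.212) and each library left out except wild-type replicate 2 (0.0689 to 0.215). Bcl2a1a, Bcl2a1b and Bcl2a1d, guardians of blood cells, had 0 counts in every library.

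Downstream of the mitochondria, 13 genes of the apoptosome, caspases and released factors were tested, of which 2 rose and 1 fell. That share, 23.1%, is near the 26.5% of all genes. Endog, a mitochondrial nuclease whose gene overlaps Spout1 on the other strand, had 24.2, 23.1 and 18.4 CPM in the knockout and 38.3, 38.0 and 35.2 CPM in wild type. No library of the groups overlapped (log2 fold change -0.77, SE 0.11, edgeR adjusted p = 1.40e-06). Casp2, an initiator caspase, had 21.1, 23.8 and 19.4 CPM in the knockout and 15.2, 12.9 and 12.9 CPM in wild type (0.65, SE 0.13, adjusted p = 0.000337). Both calls held in all 15 other settings. Casp2 lies on chromosome 6, where 32 tested genes within 5 Mb had a median of 0.15.

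The caspase-8 inhibitor Cflar, 1 of 6 tested death receptor genes and the one called among them (16.7% beside 26.5% of all genes), had 24.4, 33.0 and 29.5 CPM in the knockout and 48.5, 50.6 and 58.6 CPM in wild type. It fell by 0.87 on the log2 scale (SE 0.10, edgeR adjusted p = 4.99e-08), in all 15 other settings too, with -0.53 on log2(TPM + 1). Its target Casp8 had 4, 4 and 8 counts in the knockout and 4, 4 and 7 in wild type and did not pass the filter. Fas had at most 2 counts in any library.

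Of 5 inhibitor of apoptosis genes 1 rose and 2 fell, 60.0% of a short list beside 26.5% of all genes. Birc5, which encodes the mitotic protein survivin, changed from 209 ± 7.96 to 184 ± 6.47 CPM (log2 fold change -0.19, edgeR adjusted p = 0.00280), and lay at -0.06 on log2(TPM + 1) (adjusted p = 0.479). Birc2 rose by 0.37 (adjusted p = 0.0221) and Birc3 fell by 0.55 (adjusted p = 0.0400); leaving out knockout replicate 1, knockout replicate 3, wild-type replicate 2 or wild-type replicate 3 ended the first call (0.0801 to 0.136), and leaving out knockout replicate 1, wild-type replicate 2 or wild-type replicate 3 the second (0.124 to 0.298), and DESeq2 called neither (0.128 and 0.142). Birc3 had 4.93, 9.62 and 9.93 CPM in the knockout, and without the first of these its value was -0.28. On log2(TPM + 1) it was -0.35.

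Among 12 genes that regulate the family 3 rose and 2 fell, 41.7% beside 26.5% of all genes. Mdm4, an inhibitor of p53, rose from 113 ± 6.62 to 139 ± 4.53 CPM (0.30, SE 0.05, edgeR adjusted p = 6.09e-05). Atf4, the transcription factor of the integrated stress response, rose from 319 ± 10.6 to 371 ± 5.50 CPM (0.22, adjusted p = 0.000260). Both were called in all 15 other settings. On log2(TPM + 1) Mdm4 was at 0.44 and Atf4 at 0.34, where the median of all genes tested was 0.10. Trp53, which activates Bax, Bbc3 and Pmaip1, fell by 0.15 (adjusted p = 0.0127), a call lost without knockout replicate 2 (0.0579), without wild-type replicate 2 (0.0579), with the length offset (0.0906) and on log2(TPM + 1) (0.878, at a value of -0.02). Ddit3, a stress factor that raises Bcl2l11, fell by 0.37 (adjusted p = 0.0280) and was lost with DESeq2 (0.145), without knockout replicate 1 (0.102) and without wild-type replicate 2 (0.0718) or 3 (0.0891); it overlaps Mars on the other strand. Mdm2, a p53 target that degrades p53, rose by 0.22 (adjusted p = 0.0308; 0.34 on log2(TPM + 1)) and was named after its value was seen; DESeq2 (0.183) and each library left out except knockout replicate 3 (0.0520 to 0.111) ended its call.

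Of 8 mitochondrial partners 2 rose and 1 fell, 37.5% beside 26.5% of all genes. Vdac3, a channel of the outer membrane, rose from 177 ± 4.01 to 207 ± 8.54 CPM (0.23, edgeR adjusted p = 0.000342). Dnm1l, the fission enzyme, rose from 72.8 ± 2.81 to 88.5 ± 8.06 CPM (0.28, adjusted p = 0.00186). Both were called in all 15 other settings. On log2(TPM + 1) Vdac3 was at 0.35, where the median of all genes tested was 0.10. Vdac3 lies on chromosome 8, and Birc5 and Trp53 lie on chromosome 11. Earlier results of these data had shown shifts of chromosomes 6, 8 and 11. Neighbours of these genes were not compared, and the part of the region in their changes was not tested. Mtch2, which receives truncated Bid at mitochondria, fell by 0.13 (adjusted p = 0.0495) and lost its call in 11 of 15 settings, among them DESeq2 (0.176) and every fit with 1 library left out except that without knockout replicate 3 (0.0542 to 0.261). Its value was -0.08 without knockout replicate 2, -0.40 with the length offset, which called it (adjusted p = 0.000450), and -0.29 on log2(TPM + 1), which did not. Over the 6 lists together 20 of 54 tested genes were called, 12 higher and 8 lower, or 37.0%, with a median of 0.11. Over all genes tested 26.5% were called, 12.1% higher and 14.4% lower, and the median was 0.02. The 20 include the named genes above whose calls were lost in other settings, and no list was tested as a set.

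**Figure D5:**
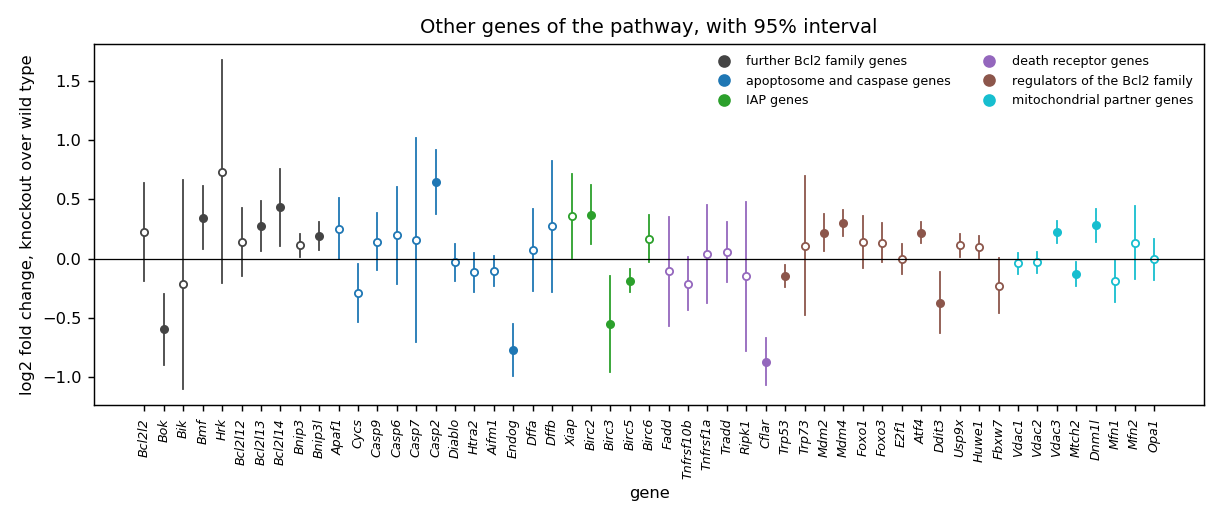
Log2 fold change with 95% interval for 53 tested genes of the 6 further lists, coloured by list and filled where called. Cflar (-0.87) and Endog (-0.77) have the largest called falls and Casp2 (0.65) the largest called rise.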

How the data were processed

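Each library came as 1 table in which the authors give, for every gene, an expected count, that is, an estimated count with no scaling for depth. The same tables hold TPM and FPKM as deposited, both scaled for length and depth; TPM gives levels between genes and FPKM entered 1 alternative. Bowtie 0.12.2 and 2 builds, mm8 and mm10, appear in the submitters' processing notes with no role; which quantification tool and strand setting were used is not given in the sources. All 55450 identifiers matched GENCODE M21 (GRCm38), the source of symbols and coordinates.

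After rounding to integers, counts were fitted with edgeR 4.0.16 (R 4.3.3) on all 6 libraries with TMM, filterByExpr, robust dispersions and the quasi-likelihood test; 12891 genes passed. Intervals are 95% intervals from that fit. The steps were tested on simulated counts. These had a single dispersion and far fewer changed genes than were called here, which limits what that test shows. DESeq2 1.42.0 and limma 3.58.1 served as alternatives.

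The members and gene lists were chosen with earlier results of these data known. The named genes are Hoxd12, all members, up to 4 called genes of each further list by smallest p at a mean of at least 1 CPM, and the 3 genes most like the member with the smallest p; 1 gene of this rule is not reported here. Promoter windows are those of RefSeq, where 9 of the 10 members had an entry.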

Additional observations from a re-analysis of the deposited data

How the results depend on the processing

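Of the 10 members, Bcl2l1, Bax, Bid, Bbc3 and Pmaip1 kept their direction under all 15 alternatives. The sign of Mcl1 turned on log2(TPM + 1) (0.053) and log2(TPM + 0.1) (0.054), that of Bak1 likewise (0.053 and 0.054) and that of Bad (0.058 and 0.061). Bcl2l11 turned with the length offset (-0.41), on log2(TPM + 1) (-0.23) and log2(TPM + 0.1) (-0.28), and when knockout replicate 3 (-0.091) or wild-type replicate 2 (-0.11) was left out. None of these values was called. The cause was not tested.

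With DESeq2, 1988 genes were called over all genes tested (701 higher, 1287 lower), on log2(TPM + 1) 1856 (1107 higher, 749 lower) and on log2(TPM + 0.1) 1824, against 3420 with edgeR (1559 higher, 1861 lower); each library left out gave 2615 to 3210. Called members, 2 with edgeR, were 1 with DESeq2, with no count filter and with the length offset, 0 on both TPM scales (limma; 0 at log2(TPM + 1) and 0 at log2(TPM + 0.1)), and 1 to 2 with a library left out. Of the further family genes, 5 with edgeR, 3 were called with RLE, 3 with no filter, 3 at 1 CPM in 3 libraries, 1 with DESeq2, 2 with the length offset, 1 on either TPM scale, and 1 to 4 with a library left out. Inhibitor of apoptosis genes, 3 with edgeR, were 1 with DESeq2 and the length offset, 0 on both TPM scales and 1 to 3 with a library left out. Regulators, 5 with edgeR, were 3 with DESeq2 and on both TPM scales and 2 to 5 with a library left out. The other lists stayed within 1.5 times.

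The log2 ratio of knockout to wild type of the guardian sum was 0.041 in TPM, -0.083 as count per effective length with TMM and -0.040 in FPKM; that of the effector sum was -0.05, -0.18 and -0.14; that of the BH3-only sum was 0.23 in TPM and 0.10 as count per length. The log2 ratio of guardians to BH3-only genes was -0.19, and -0.12 without Bbc3, an alternative chosen after seeing the data, as was leaving out Bid (-0.14).

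Replicate numbers gave no clear sign of pairing. Deviations of same-numbered libraries correlated at 0.0181, 0.0526 and 0.0451, beside -0.0929 to 0.0553 for other numbers. Not every library correlated best with its own number. Deviations from a mean of 3 libraries are not free of each other, so this check cannot exclude pairing. With a replicate block 3353 genes and 2 members were called. Members near 10 CPM, Bcl2l11 and Pmaip1, had 46 to 90 counts, which limits what can be detected in them.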
